A study of Labrus bergylta with 25 samples.

Results

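Intestines given a protein bolus were compared directly with intestines given a lipid bolus, 6 libraries against 6, out of 25 libraries of the front part of the ballan wrasse gut. The 12 libraries were chosen by their treatment labels alone. All 25 came from Segment 1, the bulbous, which in this stomachless fish is the widened part of the gut behind the esophagus. The fish were juveniles, fasted before the experiment and all labelled female. Each intestine was taken out whole and flushed. A bolus of 0.1% of the body weight was placed in the anterior lumen of all but the empty intestines. Each intestine was then kept for 60 min in oxygenated Ringer's solution before pieces of the gut wall were taken for RNA sequencing. The remaining libraries, 7 given cellulose and 6 left empty, otherwise had the same handling and are given here for reference.

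The boli differed in more than the nutrient. The protein mix was bovine casein digested with trypsin in ammonium bicarbonate, to which inhibitors of proteases and phosphatases were added. The lipid mix was cod liver oil digested with a bacterial lipase, held in phosphate-buffered saline with the detergent Tween 20. Cellulose was a powder suspended in water with a blue dye. Nutrient and carrier therefore cannot be told apart in the comparison of protein with lipid. An isolated gut also lacks blood flow and outer nerves, and 1 time point was sampled.

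In vertebrates, the gut wall senses the products of digestion through its epithelium. Amino acids and small peptides act on receptors and transporters such as the calcium-sensing receptor and the peptide transporter PepT1, and free fatty acids on receptors of their own and on CD36. Enteroendocrine cells translate both kinds of signal into hormones such as cholecystokinin, which slows the passage of food. The genes are given by the identifiers of the deposited table, which the table does not pair with names. Of its 20208 identifiers, 0 matched the reference gene table used here, so no gene group or cell type marker could be looked up. The labelled tissue could not be checked against markers for the same reason. In pieces of whole gut wall, fewer cells of a type and less RNA per cell cannot be told apart.

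The values are read counts per gene scaled by the size factor of the library. Depth was recovered from the lowest values, since all values of a library are multiples of the amount that stands for 1 read. Protein libraries held 17.4 ± 7.09 M reads (SD, n = 6) and lipid libraries 13.6 ± 1.65 M reads (SD, n = 5, lipid library 21 not recovered). Protein library 33 was the deepest, with 31586869 reads. The groups overlapped in depth, and their means did not differ beyond the spread (two-sided exact permutation test, p = 0.262, adjusted p = 0.279 over 3 library measures). Genes listed at 0 numbered 155 ± 78.3 in protein libraries and 210 ± 85.5 in lipid libraries (SD, n = 6 each) (two-sided exact permutation test, p = 0.279, adjusted p = 0.279). The 10 highest genes took 13.6 ± 1.78% of the summed values in protein libraries and 12.2 ± 1.61% in lipid libraries (SD, n = 6 each, two-sided exact permutation test, p = 0.18, adjusted p = 0.279). Of the 25 pairs of libraries within protein or within lipid whose reads were recovered, the most alike had a chi-square of 35.1 per degree of freedom, where sampling noise alone gives 1, so none of these pairs was 1 library deposited more than once. Lipid library 21 was in none of these pairs, and its highest correlation with another lipid library was 0.933, against 0.952 for the most alike of the other lipid pairs.

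Over the whole transcriptome, protein and lipid libraries were as far from their own group as from the other. The distance between 2 libraries was taken over the 19033 genes that exceeded 10 in no fewer than 5 of the 25 libraries, as the Euclidean distance on log2(value + 1). It averaged 127 ± 10.1 (SD, 15 pairs) within protein, 128 ± 9.84 (SD, 15 pairs) within lipid and 127 ± 9.54 (SD, 36 pairs) from protein to lipid. The mean between groups was lower than the mean within groups by 1.04 (difference -1.04), which gave p = 0.734 in a one-sided exact permutation test over all 924 assignments of the 12 libraries, where the smallest p possible is 0.00216. With 1 library left out the difference ran from -1.69, without protein library 20, to -0.37, without lipid library 21, and its p from 0.543 to 0.823. Among these 12, the nearest library was of the same group for 4 of 6 protein libraries and 2 of 6 lipid libraries. When all 25 libraries were allowed, the nearest library was a protein or lipid library for 6 of the 12. The other nearest libraries were cellulose or empty, so a nutrient library was not regularly closest to another nutrient library. Protein libraries 10 and 22 were the closest pair of the 12, at 104, and lipid library 21 was the farthest of them from its own group, at a mean distance of 139.

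**Figure D1:**
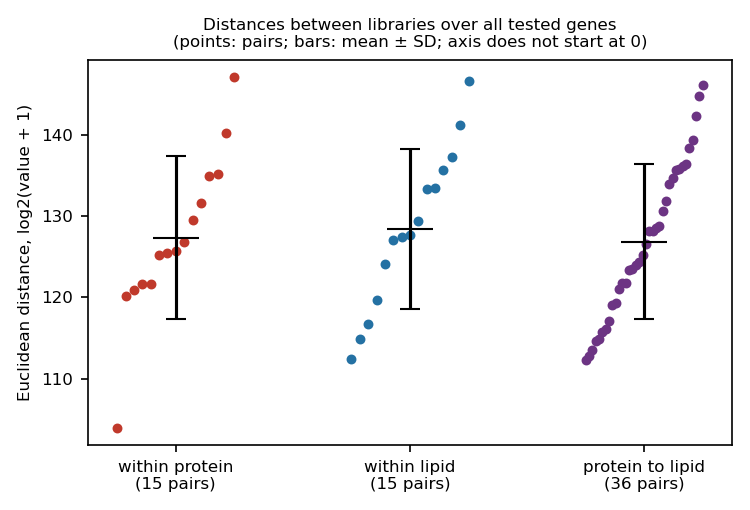
Distances between pairs of libraries over the 19033 genes tested, on log2(value + 1), for the 15 pairs within protein, the 15 within lipid and the 36 from protein to lipid. Points are pairs, bars are the mean ± SD, and the vertical axis does not start at 0. The means of 127, 128 and 127 lie within the spread of each kind of pair.

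Gene by gene, the measured difference between the protein and lipid means was small for most genes. The median log2 difference over the 19033 genes was 0.01, and the median size of a difference, regardless of sign, was 0.13. Set beside this, the median size was 0.19 for protein minus cellulose, 0.17 for lipid minus cellulose, 0.19 for protein minus empty and 0.15 for lipid minus empty. For cellulose minus empty, where neither group had a nutrient, it was 0.16. These comparisons share libraries, and the spread and number of libraries in each group enter every median size. The values therefore stand side by side without a test. How much of the 0.13 was spread between libraries was not tested. Of all genes, 53.0% had the higher mean with protein. The spread within a group was alike for the nutrients, with a median SD over genes of 0.37 on the log2 scale for protein and 0.37 for lipid. In cellulose libraries it was 0.34 and in empty intestines 0.42.

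With limma, 85 genes had an unadjusted p under 0.01, which is 0.447% of the genes tested, whereas a test without any true difference gives 1% on average. Of these genes, 29 were higher with protein (0.152%) and 56 were higher with lipid (0.294%). At an unadjusted p under 0.05 there were 470 genes (2.47%), 200 higher with protein and 270 higher with lipid. After Benjamini-Hochberg adjustment in limma 0 genes were under 0.05, and the smallest adjusted p was 0.889. On recovered reads of 23 libraries, which lack lipid library 21, edgeR gave 124 genes (0.652%) at an unadjusted p under 0.01. It gave 688 under 0.05 and 0 under an adjusted p of 0.05. DESeq2 gave 184 (0.967%), 770 and 3. Both percentages lie below the 1% given on average by a test without any true difference. Calls are taken here from the limma fit of all 25 libraries, which called no gene, and the 85 genes are described as those that lead its ranking.

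**Figure D2:**
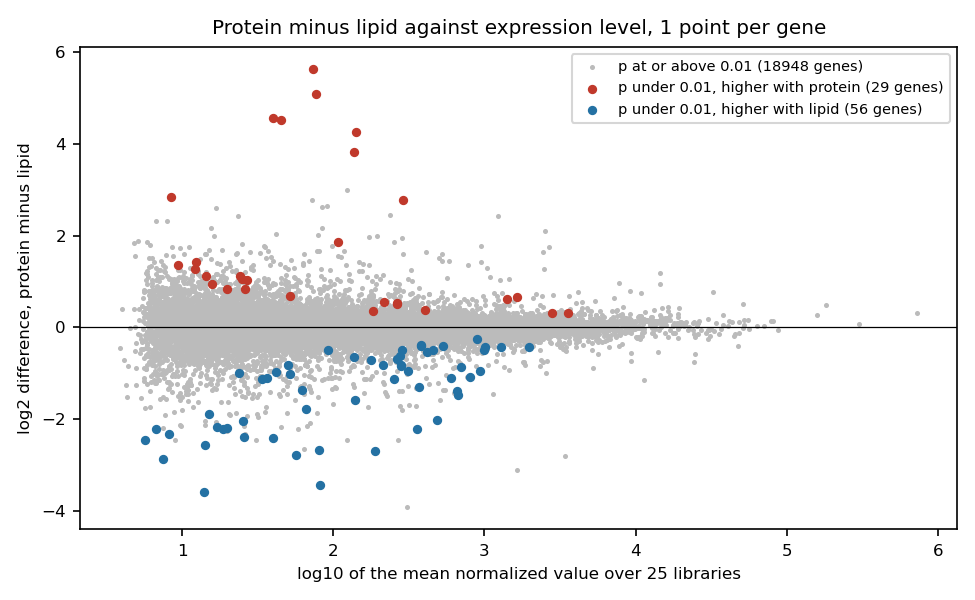
Log2 difference between protein and lipid (vertical axis) against the log10 of the mean normalized value over 25 libraries (horizontal axis), 1 point per gene. Coloured points are the 29 genes higher with protein and the 56 higher with lipid at an unadjusted limma p under 0.01. Gray points are the other tested genes, whose spread narrows as the level rises.

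The width of the intervals shows which differences remain possible. The 95% interval of a gene's log2 difference reached a median of 0.47 to either side. For 13862 of the 19033 genes (72.8%) the whole interval lay between -1 and 1, so that a change of 2-fold or more in either direction lay outside it. For 6866 genes (36.1%) it lay between -0.5 and 0.5. The other 5171 genes had intervals that reached past a 2-fold change in at least 1 direction, so a change of that size lay within them. For 14 of these, among all 19033 genes tested, the interval lay wholly beyond a 2-fold change, 7 above 1 and 7 below -1. These intervals are not adjusted for the number of genes, and 0 genes had a limma adjusted p under 0.05.

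Precision followed the expression level. Among the 1043 tested genes with a mean value below 10, the median half-width was 1.22 and 6.90% had an interval between -1 and 1. Among 6727 genes with a mean from 10 to 100 these were 0.73 and 53.0%. In the 8683 genes from 100 to 1000, the half-width was 0.36 and 90.4% were bounded in this way, and in the 2580 genes above 1000 they were 0.32 and 92.1%. The percentage of genes at a limma p under 0.01 was 0.575%, 0.52%, 0.415% and 0.31% in the same order. Most well expressed genes thus had an interval narrower than a 2-fold change in either direction, whereas few of the lowest genes did.

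**Figure D3:**
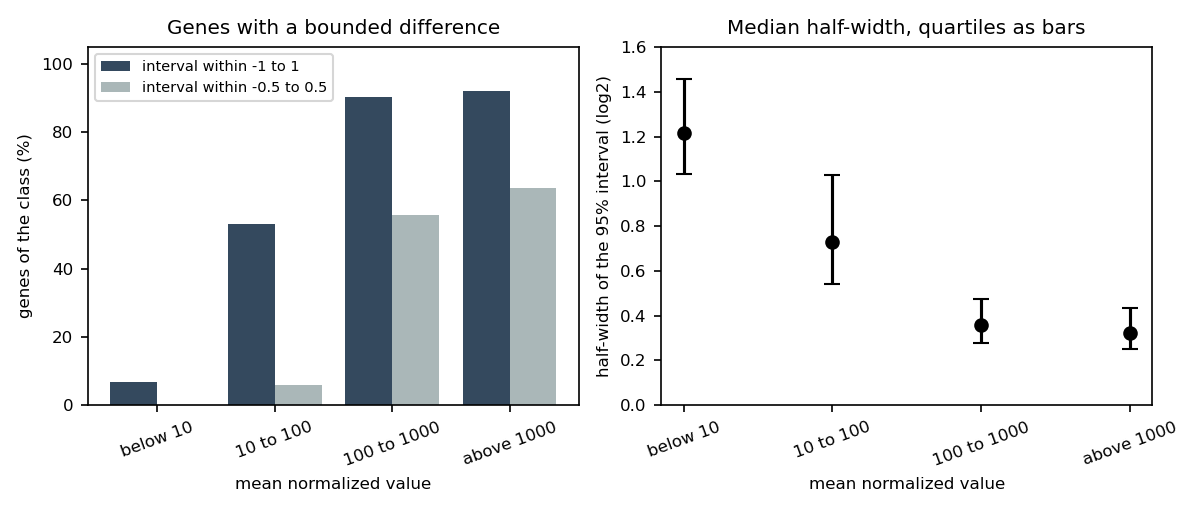
Left, the percentage of genes whose 95% interval of the protein minus lipid difference lay between -1 and 1 (dark) or between -0.5 and 0.5 (light) on the log2 scale, by class of mean normalized value. Right, the median half-width of that interval in each class, with the quartiles as bars; it falls from 1.22 below a value of 10 to 0.32 above 1000.

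The 29 leading genes higher with protein had log2 differences from 0.31 to 5.63 (median 1.05), and 16 of them exceeded 1. The 56 higher with lipid ranged from -0.25 to -3.60 (median -1.10), and 31 of them were beyond -1. Mean values of all 85 leading genes ran from 5.71 to 3570, with a median of 137 against 156 for all tested genes. The leading genes were more variable than most. Their median residual SD was 0.60 against 0.40 for all tested genes, 60 of the 85 lay above that median, and 25 of them lay above the 90th percentile of 1.08. Of the 85 genes, 18.8% were listed at 0 in at least 1 of the 12 protein and lipid libraries, against 3.49% of all tested genes.

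Clean separation of the libraries was rare. In 14 genes all 6 protein libraries lay above all 6 lipid libraries (0.0736% of those tested), and in 9 genes all 6 lay below (0.0473%), 23 genes or 0.121% in all. With libraries assigned to the groups at random, a gene without ties separates with a probability of 0.00216, a larger share than that seen. The differences in these genes ranged in size from 0.25 to 4.52 with a median of 0.78. Only 10 of the 23 were among the 85 leading genes, 4 higher with protein and 6 higher with lipid.

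The 2 leading genes in each direction are given by identifier, as those with the smallest p. LABE_00065293-RA was the first of those higher with protein. Its normalized value ran from 18.8 in protein library 22 through a median of 161 to 334 in protein library 20. With lipid it was 0 in libraries 9, 14, 18 and 28, 7.16 in library 29 and 19.2 in library 21. The groups overlapped only through lipid library 21, which lay just above the lowest protein library. The mean was 171 ± 130 for protein and 4.39 ± 7.79 for lipid (SD, n = 6 each). The log2 difference was 5.63 (standard error 1.22, 95% interval 3.12 to 8.14, limma adjusted p = 0.889). The size rested on the pseudocount, since it was 7.86 when 0.1 was added to the values and 4.02 when 5 was added.

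Without a nutrient, LABE_00065293-RA spanned a range as wide as that of both nutrients together. With cellulose it ran from 0 through a median of 10.4 to 155 in library 27. In empty intestines it ran from 0 through 13.5 to 505 in library 26, the highest of all 25 libraries. Most cellulose and empty libraries therefore lay between the medians of lipid and protein. Cellulose library 27 and empty library 19 lay within the protein range, and empty library 26 above it. Its residual SD exceeded that of 99.3% of the tested genes.

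LABE_00064521-RA was the second. Its value was lowest with protein in library 32 at 140, had a median of 445 and was highest in library 10 at 832. With lipid the lowest was 29.4, the median 45.1 and the highest 170 in library 29. All 6 protein libraries exceeded the lipid median, and lipid library 29 alone entered the protein range. The mean was 460 ± 280 for protein and 66.9 ± 53.9 for lipid (SD, n = 6 each), a log2 difference of 2.78 (standard error 0.69, 95% interval 1.35 to 4.21, limma adjusted p = 1). Cellulose libraries had a mean of 312 ± 199 (SD, n = 7) and empty libraries 306 ± 293 (SD, n = 6). On the log2 scale it was thus lipid, and not protein, that stood farther from the groups without a nutrient.

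LABE_00092944-RA had the smallest p of all genes in the limma fit of 25 libraries and was higher with lipid. Its unadjusted limma p was 0.000101 there and 0.00213 with only the 12 protein and lipid libraries fitted. With protein it ran from 0.977 in library 11, which is 1 read, through a median of 13.2 to 60.5 in library 22. With lipid it ran from 35.6 in library 28 through 92.2 to 157 in library 18. The mean was 20.7 ± 22.6 for protein and 93.0 ± 43.6 for lipid (SD, n = 6 each). The groups met only where protein library 22 exceeded lipid library 28. The log2 difference was -2.78 (standard error 0.60, 95% interval -4.02 to -1.54, limma adjusted p = 0.889). Cellulose libraries had a mean of 64.7 ± 21.5 (SD, n = 7), with a median of 66.9, and empty libraries 47.3 ± 28.6 (SD, n = 6), with a median of 40.5. Both reference groups stayed above the protein median in every library.

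LABE_00077191-RA, also higher with lipid, had the tightest values of the 4. With protein it ran from 11.5 through a median of 30.7 to 53.8 in library 33, and with lipid from 52.8 in library 29 through 73.7 to 101 in library 18. A single pair of libraries, protein library 33 and lipid library 29, kept the groups from separating. The mean was 30.9 ± 13.6 for protein and 75.3 ± 16.2 for lipid (SD, n = 6 each), a log2 difference of -1.36 (standard error 0.31, 95% interval -1.99 to -0.72, limma adjusted p = 0.889). Cellulose libraries had a median of 63.9, from 39.6 to 107, and empty libraries one of 63.3, from 39.1 to 104, closer to lipid than to protein. Protein had the lowest mean of the 4 groups, but its range also held cellulose libraries 23, 25 and 31 and empty libraries 24 and 30.

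**Figure D4:**
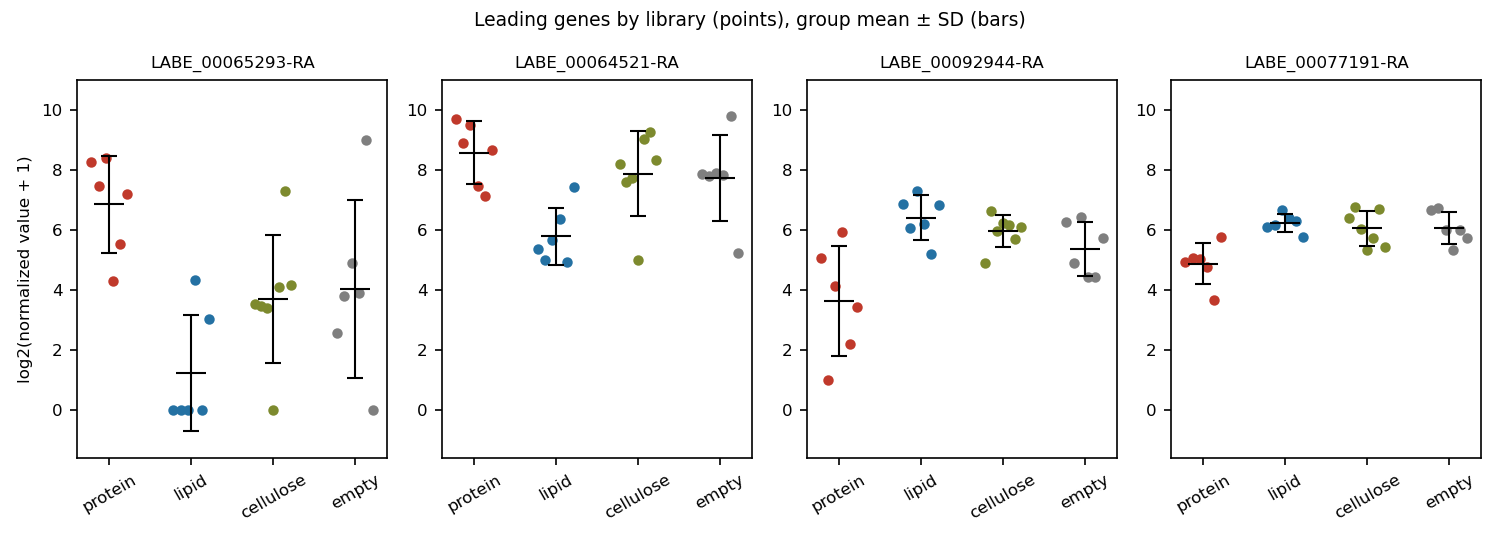
Normalized values on the log2(value + 1) scale (vertical axis) of the 4 leading genes in each of the 25 libraries, by group. Points are libraries and bars are the group mean ± SD. In each gene the protein and lipid libraries meet through 1 library of either group, and cellulose and empty libraries reach into the range of both.

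Cellulose and empty intestines served as a reference for the position of protein and lipid in the leading genes. For each of the 85 leading genes, the distance of the protein and of the lipid mean was taken from the midpoint of the cellulose and empty means on the log2 scale. This is a description, since the genes were picked for the gap between protein and lipid. Among the 56 genes higher with lipid, protein was the farther group in 46 and lipid in 10. Their median position was 0.78 below the midpoint with protein (-0.78) and 0.22 above it with lipid. Most genes of this kind thus had low values with protein, while lipid stayed near the level of intestines without a nutrient. Among the 29 genes higher with protein, protein was farther in 14 and lipid in 15, with medians of 0.56 above the midpoint for protein and -0.56 for lipid. The means of cellulose and of empty intestines both fell between protein and lipid in 22 of these 29 genes, and in 28 of the 56 genes higher with lipid. Over both directions protein was farther in 70.6% of the leading genes. Without lipid library 28, which gave a partly different list of leading genes, it was farther in 55.1%. The share over all tested genes was not determined, so these shares have no background beside them. Over all tested genes the median size of the difference from cellulose was 0.19 for protein and 0.17 for lipid. From empty intestines it was 0.19 and 0.15. Protein thus had the larger median size over all tested genes as well.

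**Figure D5:**
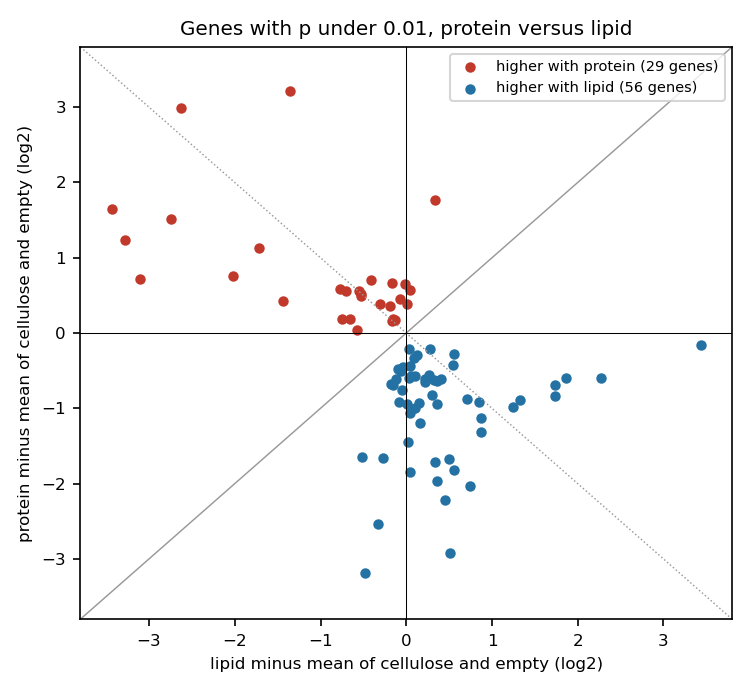
Position of the 85 leading genes: lipid mean (horizontal axis) and protein mean (vertical axis), each minus the midpoint of the cellulose and empty means, on the log2 scale. On the solid diagonal protein equals lipid, and on the dotted diagonal both are equally far from the midpoint; most of the 56 genes higher with lipid (blue) lie below the horizontal axis and near the vertical one, at a median of -0.78 for protein and 0.22 for lipid.

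The ranking depended on single intestines. Leaving out 1 of the 25 libraries at a time gave from 66 genes at an unadjusted p under 0.01, without protein library 20, to 108, without lipid library 21. Of the 85 leading genes, the fewest kept their direction and a p under 0.01 without protein library 20 (48 genes) and without protein library 33 (49 genes). In all 25 of these fits 29 genes were kept, 8 higher with protein and 21 higher with lipid, and the 4 genes given by identifier were among them. The leading genes were picked on the same libraries, so being kept is a description and not a test. These 29 genes had differences from 0.44 to 5.63 in size (median 1.89) and mean values from 7.46 to 1416. Protein was farther from the midpoint of cellulose and empty in 18 of the 21 higher with lipid and in 3 of the 8 higher with protein. 

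The 2 genes given by identifier on the protein side also varied between intestines that received no nutrient. Across the 13 cellulose and empty libraries, LABE_00065293-RA and LABE_00064521-RA had a Pearson correlation of 0.91 and a Spearman correlation of 0.86 on the log2 scale. Pearson's r was 0.91 in the 7 cellulose libraries and 0.94 in the 6 empty ones. Without the 2 libraries farthest out, empty library 26 and cellulose library 23, it was 0.87 over 11 libraries. This was 1 of 4 pairs of leading genes examined, which were picked once the values were known, so the correlations are a description without a test. In 2 of the other pairs r was 0.95 (LABE_00064517-RA and LABE_00064521-RA) and 0.90 (LABE_00065293-RA and LABE_00065295-RA). In the last pair, LABE_00071891-RA and LABE_00071892-RA, it was -0.35, with 0.63 in cellulose and -0.89 in empty libraries. Its sign turned without the 2 libraries farthest out, empty libraries 19 and 24, where it was 0.27 over 11 libraries. The genes of the other pairs are named here because the identifiers within each of those pairs are close in number. Whether they share reads was not tested. Of the tested genes, 14 (0.0736%) had an r of at least 0.8 with LABE_00065293-RA across these 13 libraries. More genes, 24, had one of -0.8 or below. How many genes reach such an r without any link to it was not determined. Of the 14, 8 had the higher mean with protein, near the 53.0% of all genes. An unadjusted p under 0.01 was found for 5 of them, all higher with protein, against 0.152% of all tested genes. LABE_00065293-RA was itself picked for its gap between protein and lipid. Genes that follow it can carry the same gap, so this count is a description and not a test. The median difference of the 14 between protein and lipid was 0.01, from -0.34 to 5.08. The part of this shared variation in the difference between protein and lipid was not tested.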

How the data were processed

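RNA of 25 libraries, 1 per intestine, was sequenced by the authors as single reads. Per the submitters' processing notes, the authors trimmed the reads with Trim Galore 0.4.2, mapped them with HISAT2 and counted them per gene with featureCounts. The study's methods name an Ensembl annotation, but what the table's identifiers refer to is not given in the sources used here. The deposited values are a normalized signal, namely counts divided by the size factor of each library, as DESeq2 computes it. Groups were taken from the treatment labels. In 25 libraries 100% of the values were whole multiples of 1 read's worth (within 0.01), and reads were recovered for 23, as empty library 19 and lipid library 21 had a step too close to 1.

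Values were tested with limma 3.58.1 (R 4.3.3) on log2(value + 1), with an intensity trend, robust variances and all 4 groups in 1 fit, over genes above 10 in at least 5 libraries. Of the 20208 genes 1175 were not tested. Fold changes on this scale understate the change of low genes. The study's methods compare groups with DESeq2 at a p under 0.01 and name no direct test of protein against lipid. The genes given by identifier were the 2 with the smallest p in each direction. The comparison, the members and the tests were chosen with earlier results of these data known. The gene fits and the distance test were tested on simulated data. The alternatives were other filters, pseudocounts and scalings, the 12 libraries alone, non-robust moderation, 1 surrogate variable (sva 3.50.0), edgeR 4.0.16 and DESeq2 1.42.0 on recovered reads, and leaving out each library. Permutation tests enumerated every assignment of the libraries. The fixed lists of pathway and cell type genes could not be used without gene names. The library numbers come from the labels and pair no libraries across groups.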

Additional observations from a re-analysis of the deposited data

Results flagged for a closer look

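Of 28 sets of values, one for each of the 4 genes given by identifier and each of 3 library measures in each group, 4 held an outlying library by Dixon's criterion, where chance gives about 1 in 20. Genes were judged on log2(value + 1) and library measures untransformed, and another scale can flag other libraries. Protein library 33 had 31586869 reads, against 16218891 in the next deepest protein library. Genes listed at 0 reached 308 in protein library 20, with 149 as the next highest of that group, and 659 in cellulose library 27, with 274 as the next highest. Empty libraries 30 and 19 listed more genes at 0, 1003 and 803. The criterion, which uses the gap to the next value, did not flag them. Their mean distances to the protein libraries, 161 and 159, were the largest of the 25 libraries. In cellulose library 23, LABE_00064521-RA stood at 5.00 on log2(value + 1), against 7.60 in the next lowest cellulose library. The values themselves were 30.9 and 194. Without protein library 33 the genes with an unadjusted p under 0.01 numbered 69 in place of 85, and without protein library 20 they numbered 66.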

How the results depend on the processing

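The count at an unadjusted p under 0.01 stayed within 1.5 times of 85 in 10 of the 12 fits that changed the processing. It was 54 (0.398%) when only the 13558 genes averaging 50 or more were tested, and 184 (0.967%) with DESeq2 on the reads of 23 libraries. Limma on the same 23 libraries gave 108, of which 57 were among the 85. DESeq2 shared 61 with them and edgeR 47 of its 124. DESeq2 gave 3 genes with an adjusted p under 0.05, LABE_00027631-RA, LABE_00075002-RA and LABE_00079695-RA, named here because of this count, all lower with protein. The other 11 fits gave 0. Leaving out 1 library at a time gave 0 to 1 such gene, LABE_00075002-RA without lipid library 28. The genes whose protein and lipid libraries did not overlap fell from 23 to 13 among genes averaging 50 or more, and ran from 31 to 57 with 1 library left out, where fewer libraries make separation easier by construction. Protein was the farther group from cellulose and empty in 81.5% of the leading genes averaging 50 or more and in 55.1% to 79.8% with 1 library left out. Leaving out protein library 32 gave 44 leading genes higher with protein in place of 29. The genes with an interval between -1 and 1 numbered 11972 to 15613 over 10 alternatives. The lowest count came from the fit of only 13558 genes, and the highest, out of 19033 genes, from adding 5 to the values. The distance test kept its direction and a p above 0.05 in each fit run. The library measures kept their direction and an adjusted p above 0.05. The lowest unadjusted p among them was 0.0411, for genes listed at 0 without protein library 20 (exact permutation test, adjusted p = 0.107). The 4 genes given by identifier were picked for their small p in the limma fit of 25 libraries, and the other fits share its libraries. Described with that limit, they kept their direction with an unadjusted p of at most 0.00213. That highest p was LABE_00092944-RA in the limma fit of the 12 protein and lipid libraries alone. No paired analysis was possible because no library number occurs in more than 1 group. Beyond the smaller numbers of genes or libraries named, the cause was not tested.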
